A study of Mus musculus with 2 samples.

Results

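The genes described here are 8 genes known from nephron progenitors, the cells of the cap mesenchyme from which nephrons form: Six2, Cited1, Eya1, Sall1, Osr1, Meox1, Uncx and Crym. They were taken by name, by a rule that uses no measured value but was written with earlier results of these data known, and the count tables list them in lower case (six2, cited1, eya1, sall1, osr1, meox1, uncx, crym). All 8 are among the 8930 genes listed for both libraries. The data are single-cell RNA counts of whole mouse kidney (Mus musculus, C57BL/6J) at postnatal day 2, an age at which nephrons are still being formed in the mouse. A control library of 9071 cells was compared with a library of 5494 cells from offspring exposed to maternal diabetes, called the exposed library below; the labels give no method for the diabetes. The study's title asks what underlies impaired kidney development after maternal diabetes. Each group has 1 library, and the labels speak of 1 kidney, of pooled cells and of male mice without settling how many animals a library holds, so no difference between the libraries has a replicate check and none was tested.

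In the developing kidney, progenitors around the tips of the ureteric bud either renew themselves or, on a Wnt signal from the bud, condense into a pretubular aggregate and turn into an epithelial renal vesicle. Six2 and Cited1 mark the renewing cells, and Cited1 is known to be lost before Six2 as cells are induced. Wnt4, a secreted signal, is switched on in the induced cells and drives their change into an epithelium, and Lhx1, a LIM homeodomain factor, patterns the renal vesicle. Six2, Meox1 and Uncx are homeodomain factors, and Sall1 and Osr1 are zinc finger factors. Cited1 is a transcriptional coregulator without a DNA-binding domain of its own, and Eya1 is a phosphatase and coactivator that partners with Six2 and its relatives. Crym is not a transcription factor but a protein that binds thyroid hormone.

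In build GRCm38 (mm10) with GENCODE annotation, all 8 are annotated as protein-coding genes. Six2 lies on the minus strand of chromosome 17 from 85684277 to 85688274, and Cited1 on the minus strand of chromosome X from 102247381 to 102252181. Eya1 lies on chromosome 1 from 14168954 to 14310235 (minus strand) and Sall1 on chromosome 8 from 89027235 to 89044162 (minus strand). Osr1 is found on chromosome 12 from 9570116 to 9581500 (plus strand), Meox1 on chromosome 11 from 101877510 to 101894374 (minus strand), Uncx on chromosome 5 from 139543494 to 139548179 (plus strand) and Crym on chromosome 7 from 120186380 to 120202111 (minus strand). Eya1, Osr1 and Meox1 overlap annotated genes on the opposite strand, and Eya1 also overlaps one on its own strand; the sources used here do not say how such reads were counted. The other 5 genes overlap no annotated gene.

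Promoter sequence from RefSeq (GRCm38.p6) was available for 4 of the 8 genes, Six2, Cited1, Sall1 and Uncx. The sequences upstream of 3 of them are shown because these genes mark different extents of the lineage in the results: Six2 and Cited1 were nearly restricted to 1 cluster in each library, and Sall1 was found in every tubule-like and podocyte-like cluster. Each is read 5′ to 3′ on the gene's strand and ends just before the more upstream of the RefSeq and GENCODE starts, and capitals mark motif matches.
Six2, chr17:85688275-85688504, minus strand: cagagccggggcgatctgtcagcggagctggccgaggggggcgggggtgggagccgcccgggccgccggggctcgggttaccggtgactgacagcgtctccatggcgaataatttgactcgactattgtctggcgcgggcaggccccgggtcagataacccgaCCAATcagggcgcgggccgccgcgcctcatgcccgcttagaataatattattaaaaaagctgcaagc
Cited1, chrX:102252182-102252431, minus strand: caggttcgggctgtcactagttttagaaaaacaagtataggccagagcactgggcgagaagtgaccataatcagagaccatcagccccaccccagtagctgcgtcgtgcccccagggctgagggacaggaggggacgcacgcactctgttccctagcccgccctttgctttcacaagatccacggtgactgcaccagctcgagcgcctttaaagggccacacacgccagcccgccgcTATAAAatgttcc
Sall1, chr8:89044163-89044412, minus strand: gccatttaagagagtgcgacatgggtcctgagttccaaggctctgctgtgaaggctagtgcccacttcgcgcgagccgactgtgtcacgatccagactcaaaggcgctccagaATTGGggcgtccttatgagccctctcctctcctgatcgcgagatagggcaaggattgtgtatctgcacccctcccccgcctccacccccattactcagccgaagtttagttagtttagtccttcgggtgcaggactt
The search covered both strands for TATAAA (the TATA box), the box CCAAT, the homeodomain core TAATTA, a core of Six2 sites, TCAGGTT, and the TCF and LEF core CTTTGAT, which do not overlap one another in these sequences. The Six2 sequence held CCAAT 87 bases before the RefSeq start, and the Sall1 sequence held it, read on the other strand, 137 bases before. Cited1 held TATAAA 13 bases before its start. RefSeq lists 3 windows each for Cited1 and Sall1, and the most upstream is shown; the second Cited1 window holds TATAAA and CCAAT, and the other windows of these genes hold none of the motifs. Among 32841 RefSeq windows of 250 bases before a start, 33.9% held CCAAT and 12.4% held TATAAA. The homeodomain, Six2 and TCF cores, held by 4.84%, 3.49% and 3.21% of the windows, are not among the letters of these 3 sequences. The GC content was 64.8% for Six2, 58% for Cited1 and 56.4% for Sall1 in the sequences shown, 57.2% and 65.2% in the other windows of Cited1 and 74.4% and 78.4% in those of Sall1, against a median of 52.4% over the windows. The single-cell counts read the ends of transcripts and measure nothing at these sequences.

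Levels were counted as unique molecular identifiers (UMIs), 1 per captured transcript, and are given as UMIs of a gene per 1000000 UMIs (CPM) of the same cells; these values are not per length and were compared only within a gene. The libraries hold 39442253 and 28381167 UMIs, with a median of 3523 UMIs per control cell and 4346 per exposed cell. Because cells of the exposed library are deeper, shares of cells with a UMI were also computed after each cell was thinned to 2000 UMIs (7587 control and 4965 exposed cells remained). All intervals are 95% intervals, exact Poisson for CPM, Clopper-Pearson for shares and exact conditional binomial for ratios; they cover counting error only. The libraries share 14 cell barcodes, 0.154% of the control and 0.255% of the exposed cells, and leaving those out moved no ratio of the libraries by more than its counting interval.

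The authors' 10 clusters of each library carry numbers only and were named from markers that exclude the 8 genes. In each library cluster 2 held the nephron-forming cells: 10 of 12 fixed markers of differentiating nephron and 7 of 11 of nephron progenitors were detected in the control, and 11 and 7 in the exposed library. By the count of markers the cluster is called differentiating nephron-like; no separate progenitor cluster exists among the authors' clusters, and it is named the nephrogenic cluster here. It held 3335 cells or 36.8% of the control library and 1963 cells or 35.7% of the exposed library. Markers of ureteric bud and collecting duct were present in it too, with a summed level of 1138 CPM in the control and 514 CPM in the exposed library. All 11 were above 0 in both, and the water channel gene Aqp2 had 652 CPM in the control against 208 CPM in the exposed library. Loop of Henle and distal tubule markers were present as well, and their summed level was higher. In the sums made for naming clusters they had 1563 CPM in the control and 906 CPM in the exposed library. The ureteric bud and collecting duct markers had 1131 and 511 CPM in those sums. Of the 9 loop of Henle and distal tubule markers, 2 were detected in the control and none in the exposed library. The remaining clusters were named stroma-like, endothelium-like, macrophage-like, podocyte-like, proximal tubule-like or loop of Henle and distal tubule-like. Cluster 8 of the exposed library had 4 markers each of the last class and of ureteric bud and collecting duct and carries both names. Other clusters also held markers of more than 1 class. Of the 11 ureteric bud and collecting duct markers, 6 were detected in exposed cluster 5 and 3 each in control clusters 5 and 10. Aqp2 counted as detected in cluster 2 of the control, but in clusters 5 and 8 of the exposed library. Cluster 5 of each library also held 6 of 7 intercalated cell markers, and the macrophage-like cluster 3 of 5 neutrophil markers. Besides these, 1 cluster of each library, made of nearly only mitochondrial UMIs, stayed unnamed. The clusters were made by the authors from these same cells, so levels by cluster are a description.

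Of the 8 genes, 7 had their highest level in the nephrogenic cluster of both libraries, and the remaining one, Meox1, was highest in endothelium-like cells. The share of all genes led by the nephrogenic cluster was not computed, so this count has no background. The most restricted were Six2, with 98.3% of its 973 control UMIs and 97.9% of its 564 exposed UMIs in that cluster, Uncx, with 97.4% of 3208 and 97.0% of 2436, and Cited1, with 96.3% of 3913 and 96.7% of 2290. Eya1 had 94.4% and 96.9% of its UMIs there, and Crym 92.3% and 88.6%. Osr1 had 84.5% in both libraries, and Sall1 78.3% and 76.0%. Meox1 had only 69.2% and 59.1%. The order of restriction was the same in both libraries but for Cited1 and Eya1, which changed places.

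**Figure D1:**
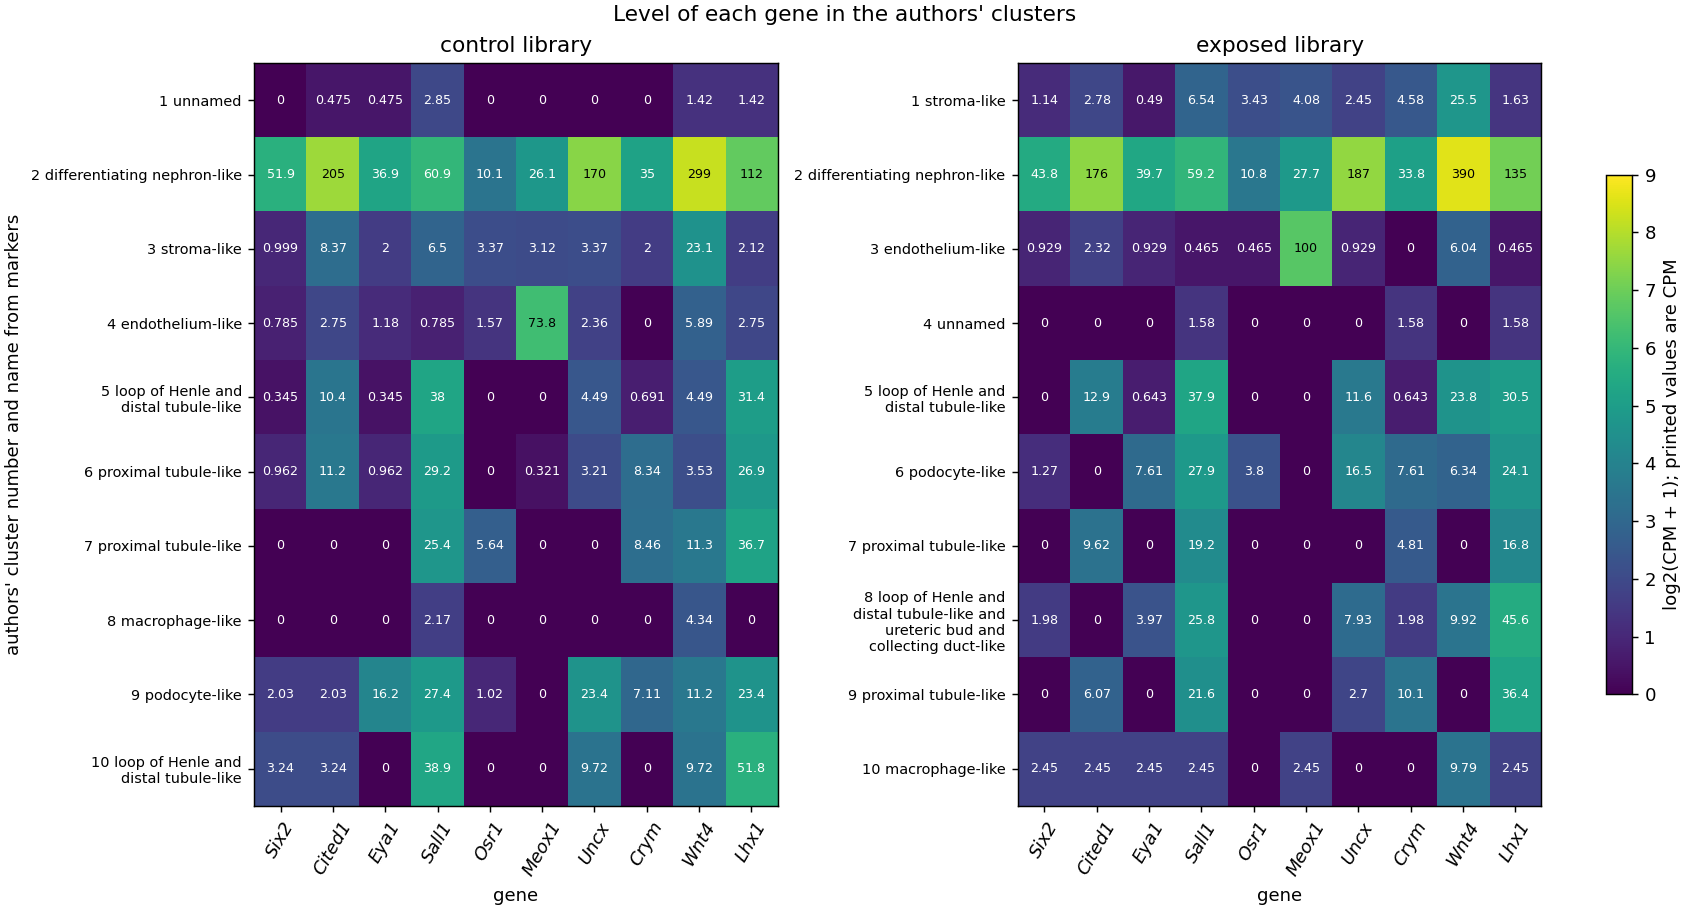
Level of the 8 genes and of Wnt4 and Lhx1 (columns) in the authors' 10 clusters (rows, with names from markers) of the control (left) and exposed library (right); colour is log2(CPM + 1) and the printed values are CPM. Cluster 2 is the brightest row for all genes but Meox1, which is highest in the endothelium-like cluster, 73.8 CPM in the control and 100 CPM in the exposed library, and Sall1 is above 19 CPM in every tubule-like and podocyte-like cluster.

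Six2 reached 51.9 CPM (48.7 to 55.3) in the control nephrogenic cluster and 43.8 CPM (40.2 to 47.6) in the exposed one. Its next highest cluster had 3.24 CPM in the control (upper limit 18.1) and 2.45 CPM in the exposed library (upper limit 13.6), each resting on 1 UMI. Six2 UMIs were seen in 16.6% of nephrogenic control cells (552 cells) and in 18.3% of exposed cells (359 cells). The endothelium-like cells, which should lack this gene, were taken as a background. Of them, 0.282% of control and 0.407% of exposed cells held a Six2 UMI, 2 UMIs in each library. Their median depths were 2650 and 3311 UMIs against 4480 and 5606 in the nephrogenic cluster. Whether these UMIs came from free RNA, doublets or misplaced cells was not tested. After thinning, the Six2 shares were 8.83% and 8.07% in the nephrogenic cluster against 0% and 0.247% in endothelium-like cells. Six2 was therefore detected far above that background in 1 cluster of each library.

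Cited1 had 205 CPM (198 to 211) in the nephrogenic cluster of the control and 176 CPM (169 to 183) in that of the exposed library, in 26.5% and 27.6% of cells. Single cells held up to 32 and 25 Cited1 UMIs. Uncx was found in 38.0% and 43.9% of these cells, with 170 CPM (164 to 176) in the control and 187 CPM (180 to 195) in the exposed library. Its next highest cluster was podocyte-like in both libraries, at 23.4 CPM (14.8 to 35.0) and 16.5 CPM (8.78 to 28.2). Eya1 had the same runner-up: 36.9 CPM (34.1 to 39.7) and 39.7 CPM (36.3 to 43.3) in the nephrogenic cluster were followed by 16.2 CPM (9.29 to 26.4) and 7.61 CPM (2.79 to 16.6) in podocyte-like cells. For both genes the intervals of the leading and the next cluster did not overlap in either library. Six2 and Cited1 did not share this tail: podocyte-like cells held 2 UMIs of each in the control, and 1 and 0 in the exposed library.

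Sall1, a gene also known from later nephron segments, was the least selective of the genes led by the nephrogenic cluster. It had 60.9 CPM (57.3 to 64.5) and 59.2 CPM (55.04 to 63.6) there, in 22.9% and 26.5% of cells. The small loop of Henle and distal tubule-like cluster 10 of the control was next with 38.9 CPM, and its upper limit of 67.9 overlapped the leading interval; in the exposed library the next was 37.9 CPM with an upper limit of 45.4. Sall1 lay between 19.2 and 38.9 CPM in every tubule-like and podocyte-like cluster of both libraries, and at 0.785 and 0.465 CPM in the endothelium-like ones. Its spread over epithelia thus contrasted with its near absence from endothelium-like cells.

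Osr1, the earliest of these genes in kidney development, was rare. It had 186 UMIs or 10.1 CPM (8.70 to 11.7) in the control cluster and 136 UMIs or 10.8 CPM (9.06 to 12.8) in the exposed one, with UMIs in 4.86% and 5.55% of cells. In stroma-like cells it was at 3.37 CPM in the control and 3.43 CPM in the exposed library. Small clusters with 2 and 3 UMIs stood next, proximal tubule-like at 5.64 CPM (0.683 to 20.4) and podocyte-like at 3.80 CPM (0.784 to 11.1), and their intervals overlapped that of the nephrogenic cluster. Crym had 35.0 CPM (32.4 to 37.8) and 33.8 CPM (30.7 to 37.2), and its next cluster was proximal tubule-like in both libraries, at 8.46 and 10.1 CPM.

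Meox1 had 2 separate sites. In endothelium-like cells it reached 73.8 CPM (63.7 to 85.2) in the control and 100 CPM (87.4 to 115) in the exposed library, in 19.6% and 29.3% of cells. In the nephrogenic cluster it reached 26.1 CPM (23.8 to 28.5) and 27.7 CPM (24.9 to 30.8), in 9.06% and 10.6% of cells. It had no UMI in podocyte-like cells of either library, which allows a share of up to 0.847% of 354 control and 1.18% of 254 exposed cells with a UMI. The endothelium-like cells carried few UMIs of the other 7 genes, between 0 and 2.75 CPM each. The Meox1 signal in endothelium-like cells was thus not accompanied by the rest of the group.

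Genes whose levels over the 10 clusters of each library were most like those of each member were ranked by the lower of the 2 Pearson correlations of log2(CPM + 10), among genes with at least 200 UMIs in each library. The points of a correlation share a library and are clusters of unequal size, and the values are descriptions. For Six2 these genes were Elavl4 (lower r 0.98), Hes5, a Notch target (0.98), Col2a1 (0.97), Egr4 (0.97) and the gene listed as a730017c20rik (0.97). Cited1 was closest to Krt23 (0.94), followed by a730017c20rik, Egr4, Hes5 and the neuropeptide gene Npy (all 0.94). Uncx shared a730017c20rik (0.94), Krt23 (0.92) and Npy (0.91) with it and added Rspo1, a Wnt agonist (0.94), and Il17rd (0.93). Eya1 was closest to Spock2 (0.94), Rspo1 (0.93), Eya4 (0.90), Sh3bgr (0.90) and Npy (0.89). Crym had lower values, with Rspo1 (0.85), Greb1, Gxylt2, Snap91 and Il17rd (all 0.84). Sall1 was the one whose nearest gene was Lhx1 (0.94), followed by garem (0.93), Pax8 (0.93), Tom1l1 (0.93) and Fras1 (0.92). Osr1 was closest to Wnt4 (0.86), Nnat (0.85), Fgf8 (0.83), Bmper (0.81) and Hes5 (0.81). With 161 UMIs in the exposed library, Osr1 itself fell below the minimum set for the ranked genes, so its values are less certain. Meox1 stood with another set, Trim16 (0.96), Hs3st1 (0.96), Kif26a (0.95), Serp2 (0.95) and Col13a1 (0.95). Among the members themselves the lower correlation was highest for Eya1 with Uncx (0.95), and that of Six2 with Cited1 was 0.91; Meox1 with Sall1 was negative in both libraries (-0.20 and -0.23).

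Wnt4 and Lhx1 split the nephrogenic cells into 4 classes. In the control, 1692 cells held UMIs of neither gene, 773 of Wnt4 alone, 346 of Lhx1 alone and 524 of both; the exposed library had 814, 533, 246 and 370. Cells with UMIs of both were the deepest, with a median of 7531 and 8146.5 UMIs against 3865 and 4764.5 in cells with neither, so levels are given as CPM and shares after thinning, where the classes were redrawn from the thinned counts. Summed ureteric bud and collecting duct markers were at 1900 CPM in control cells with Wnt4 alone, 1332 with neither, 701 with Lhx1 alone and 334 with both, and at 652, 663, 529 and 187 CPM in the exposed library. Their part in the differences between classes was not tested.

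The genes fell into 2 patterns that were alike in both libraries. By CPM, Six2, Cited1, Eya1, Osr1, Meox1 and Crym were each highest in cells with Wnt4 alone and lowest in cells with Lhx1 alone. Sall1 and Uncx were highest in cells with both. The thinned shares were highest in the same classes, while the lowest share of the 6 genes lay in either class with Lhx1. Between cells with Wnt4 alone and with Lhx1 alone, 6 of the 8 genes were higher by 1.5-fold or more in the control, where 6.1% of the 7968 genes with at least 50 UMIs were, and none was lower by that much, against 13.7% of genes. The exposed library gave 7 of 8 higher against 6.95% of 7607 genes, and none lower against 18.1%. The median log2 ratio of the 8 genes was 2.14 for control and 3.41 for exposed cells, beside -0.12 and -0.14 over all genes.

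Six2 showed the pattern plainly. It had 95.1 CPM (86.0 to 105) in control cells with Wnt4 alone, 40.4 CPM (35.9 to 45.3) with neither, 47.7 CPM (41.6 to 54.5) with both and 16.2 CPM (11.4 to 22.5) with Lhx1 alone. The exposed library had 75.5 CPM (66.5 to 85.5), 40.1 CPM (34.3 to 46.7), 38.6 CPM (32.3 to 45.9) and 2.82 CPM (0.914 to 6.57) in the same order, the last from 5 UMIs. The ratio of Wnt4 alone to Lhx1 alone was 5.86 (4.16 to 8.48) in the control and 26.8 (11.3 to 83.3) in the exposed library. The exposed ratio moved with the depth, to 5.90 (2.76 to 15.0) at 3000, 11.7 (3.11 to 98.6) at 2000 and 1.09 (0.341 to 4.53) at 1000 UMIs per cell. Cells with neither and with both had overlapping intervals for Six2. Their thinned shares, 7.56% and 7.87% with neither and 3.09% and 3.27% with both, ran against the CPM in the control, so no order between these classes is read. The share with Wnt4 alone was 16.3% and 12.7%.

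Cited1 had 287 CPM (271 to 304) in control and 296 CPM (277 to 315) in exposed cells with Wnt4 alone. With neither gene it had 243 CPM (232 to 254) and 188 CPM (175 to 202), with both genes 135 CPM (125 to 146) and 113 CPM (102 to 125), and with Lhx1 alone 62.7 CPM (52.7 to 74.0) and 40.6 CPM (31.7 to 51.1). It was thus lower in both classes with Lhx1 than in both without it, with no overlap between the intervals of the 4 classes in either library. The ratio of Wnt4 alone to Lhx1 alone was 4.58 (3.84 to 5.503) and 7.29 (5.73 to 9.39).

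Few UMIs of the other genes were seen in Lhx1-alone cells, and most of their ratios moved with the depth. Eya1 had 58.8 CPM with Wnt4 alone and 5.41 CPM with Lhx1 alone in the control, a ratio of 10.9 (6.10 to 21.3), and 74.0 and 5.63 CPM in the exposed cells, a ratio of 13.1 (7.03 to 27.8); the control ratio was 4.23 (1.96 to 10.9) at 2000 UMIs per cell. Osr1 rested on 3 UMIs in Lhx1-alone cells of each library, and its ratios were 11.9 (3.89 to 58.9) and 10.9 (3.55 to 54.1), the first of which was 2.93 (0.891 to 15.2) at 3000 UMIs per cell. Crym gave 4.25 (2.77 to 6.79) and 10.4 (5.55 to 22.1). Meox1 gave 2.98 (2.00 to 4.58) in the control and 23.7 (7.93 to 116) in the exposed library, where 3 UMIs were seen in cells with Lhx1 alone. At 3000 UMIs per cell Meox1 was at 2.14 (1.15 to 4.34) and 2.29 (1.16 to 5.05), so no difference between the libraries is read.

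Uncx and Sall1 were higher in cells with both genes than with Wnt4 alone. Uncx had 186 CPM (173 to 200) with Wnt4 alone and 307 CPM (291 to 323) with both in the control, and 197 CPM (182 to 213) and 323 CPM (304 to 342) in the exposed library. Sall1 had 56.4 CPM (49.5 to 64.0) and 94.4 CPM (85.7 to 104) in the control, and 54.8 CPM (47.1 to 63.3) and 90.4 CPM (80.5 to 101) in the exposed library. These were the 2 genes of 8 that were higher by 1.5-fold or more in cells with both than with Wnt4 alone, in each library, against 6.79% of 8037 genes in the control and 7.06% of 7677 in the exposed library. Lower by as much were 5 of the 8 in each library, against 7.49% and 4.68% of genes: Six2, Cited1, Eya1 and Osr1 in both, with Meox1 in the control and Crym in the exposed library. The thinned shares put Uncx in 42.3% and 42.5% of cells with both genes and Sall1 in 20.1% and 16.3%, the highest of the 4 classes for each gene.

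**Figure D2:**
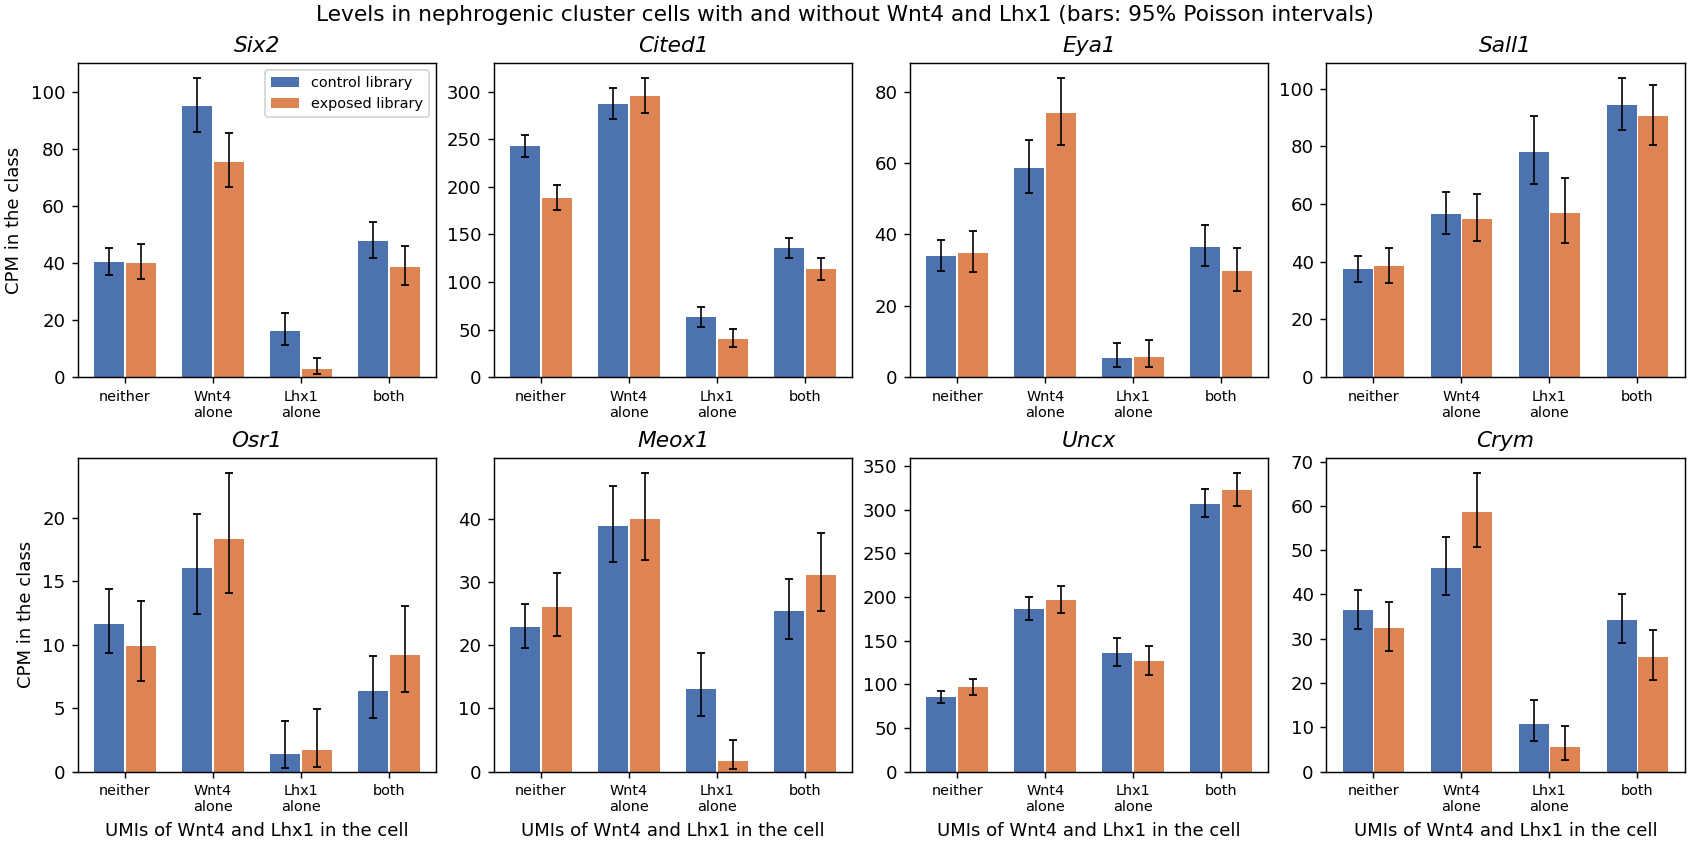
CPM of each gene in nephrogenic cluster cells with UMIs of neither Wnt4 nor Lhx1, Wnt4 alone, Lhx1 alone or both; blue bars are the control and orange bars the exposed library, with 95% Poisson intervals. All but Sall1 and Uncx peak with Wnt4 alone and are lowest with Lhx1 alone, for example Six2 at 95.1 against 16.2 CPM in the control; those are highest in cells with both.

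Levels also differed by the number of Wnt4 UMIs per cell. Uncx went from 96.8 CPM in control cells with 0 Wnt4 UMIs through 188, 234 and 269 CPM in cells with 1, 2 to 3 and 4 to 7, to 306 CPM in cells with 8 or more, and from 105 to 288 CPM between the same ends in the exposed library. Sall1 went from 46.8 to 106 CPM in the control and from 44.0 to 92.2 CPM in the exposed library. Cited1 did not follow: in the exposed library it had 144 CPM at 0 Wnt4 UMIs, 263 CPM at 1 and 264 CPM at 2 to 3, and 113 CPM at 8 or more. Its control values were 201, 239, 232 and 151 CPM at these steps. Cited1 thus peaked at low Wnt4 counts in both libraries, while Uncx and Sall1 were highest or near their highest where Wnt4 was. Depth differed along these steps too. The median was 4027 UMIs per control cell at 0 Wnt4 UMIs and 9712 at 8 or more, and 5018.5 and 8635 per exposed cell. These steps were not redrawn at equal depth, and the part of depth was not tested.

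Other genes of the pathway were followed by lists written with earlier results of these data known. Of a list of nephron progenitor genes without the 8, 14 of 26 measured genes were higher and 2 lower by 1.5-fold in Wnt4-alone than in Lhx1-alone control cells, and 19 and 2 of 27 in the exposed library. Of 20 genes of early nephron differentiation, a list that holds Wnt4 and Lhx1 themselves, 3 were higher and 12 lower in the control, and 3 and 13 in the exposed library. Of all genes, 6.1% were higher and 13.7% lower in the control, and 6.95% and 18.1% in the exposed library. The median log2 ratios were 0.76 and 1.04 for the progenitor list and -0.99 and -0.97 for the differentiation list. None of 10 cell division genes passed 1.5-fold in this comparison in either library, and their medians were -0.06 and -0.11. Between cells with both genes and with Wnt4 alone, 10 of 10 division genes were higher by 1.5-fold or more in the control and 6 of 10 in the exposed library, beside 6.79% and 7.06% of all genes. In that comparison 18 and 17 of 20 differentiation genes were higher and none lower. The progenitor list had 2 higher and 3 lower of 26 in the control, and 1 higher and 6 lower of 27 in the exposed library.

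Over all cells of the kidney, Six2 was higher in cells with Wnt4: it had 66.2 CPM in Wnt4-positive and 11.7 CPM in Wnt4-negative control cells, and 51.9 and 8.61 CPM in the exposed library. With and without Lhx1 the values differed less, at 31.8 and 23.0 CPM in the control and 21.4 and 19.6 CPM in the exposed library. Sall1 differed by both splits, with 80.1 CPM in cells with Lhx1 and 25.3 CPM in cells without it in the control, and 71.2 and 24.2 CPM in the exposed library. These values mix cell types, since 7110 control cells held neither gene and 1692 of them were in the nephrogenic cluster.

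Cells with UMIs of several of the 8 genes lay mostly in the nephrogenic cluster. Most UMIs of each gene lie in this cluster, so a contrast with the other clusters was fixed in advance. Of its control cells, 22.7% (21.3 to 24.2) held UMIs of at least 3 of the 8 genes, against 0.209% (0.108 to 0.365) of cells in the other clusters, and the exposed library had 24.3% (22.4 to 26.3) against 0.227% (0.098 to 0.446). After thinning the shares were 9.06% and 7.43% in the nephrogenic cluster, 0.066% in the other control clusters and 0 of 3094 cells in the other exposed clusters. All 8 genes were seen in 6 cells of each library. The share expected from the rates of the single genes within the cluster was not computed. No UMI of any was seen in 41.2% of control and 32.7% of exposed nephrogenic cells.

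Among cells of the nephrogenic cluster with Six2, 71.7% (67.8 to 75.5) of 552 control cells also held Cited1, against 17.5% (16.1 to 19.0) of cells without Six2. The exposed library had 64.9% (59.7 to 69.8) of 359 cells against 19.2% (17.3 to 21.2). Read the other way, 44.8% of control and 43.1% of exposed Cited1 cells held Six2. Thinning lowered the overlap to 58.9% (52.8 to 64.8) against 15.3% in the control and 43.7% (35.7 to 52.0) against 14.1% in the exposed library. The share of Six2 cells with Cited1 was lower in the exposed library at each depth used, and the difference was not tested.

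All 56 ordered pairs of the 8 genes had the partner in a larger share of cells with the gene than without it, in both libraries, and the median fold between those shares was 2.91 for control and 2.58 for exposed cells. Deep cells hold more of every gene, and at 2000 UMIs per cell 54 control and 48 exposed pairs kept the direction, with medians of 2.05 and 1.89. The intervals were apart for 40 and 30 pairs. No background of pairs among other genes was counted, so the pattern cannot be called particular to the 8 genes. The largest thinned folds were of Crym and Meox1 with Cited1. Crym was in 19.8% of control cells with Cited1 against 2.87% of cells without it, 6.89-fold, and Meox1 in 13.8% against 2.06%, 6.70-fold. In the exposed library Meox1 was in 19.2% against 2.37%, 8.09-fold, and Crym in 19.2% against 2.50%, 7.68-fold. Meox1, whose level was highest in endothelium-like cells, was thus tied to Cited1 within the nephrogenic cluster: 61.4% and 61.5% of its thinned cells there held Cited1. Sall1 with Osr1 had the lowest folds, 0.957 for control and 0.663 for exposed cells.

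**Figure D3:**
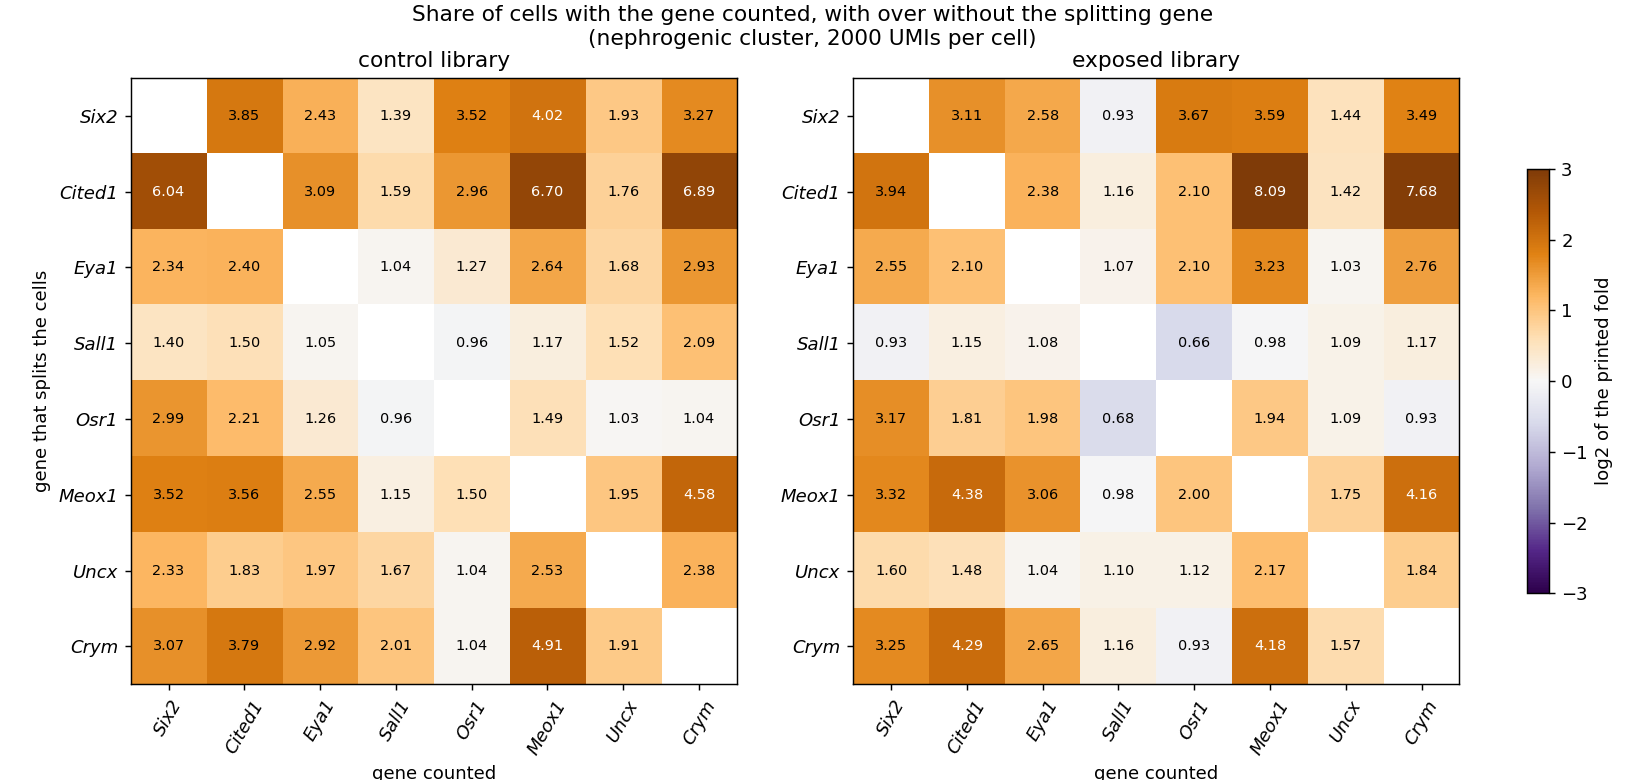
Fold between the share of nephrogenic cluster cells with a gene (column) among cells with and without the splitting gene (row), at 2000 UMIs per cell, in the control (left) and exposed library (right); colour is the log2 of the printed fold. The darkest cells are Crym and Meox1 split by Cited1, at 6.89 and 6.70 in the control, and the row of Sall1 is pale, down to 0.663 for Osr1 in the exposed library.

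Lhx1 was found in fewer of the cells with Six2 or Cited1 at equal depth. It was found in 5.93% of thinned control cells with Six2 against 15.3% of those without, and in 4.64% against 18.0% in the exposed library. With Cited1 the shares were 7.68% against 16.1% and 8.77% against 18.6%. Wnt4 was in 41.1% of Six2 cells in each library against 26.1% and 31.4% without Six2, while the shares with and without Cited1 were close, at 27.5% against 27.4% and 33.1% against 32.0%. Both genes thus had a lower share of Lhx1 beside them, and Six2 had a higher share of Wnt4.

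When nephrogenic cells were grouped by Six2 and Cited1, cells with Six2 but no Cited1 UMI had the most Wnt4. Their Wnt4 level was 657 CPM (606 to 711) in 156 control cells and 657 CPM (605 to 713) in 126 exposed cells. Cells with both genes had 360 CPM (338 to 382) and 422 CPM (394 to 452), and cells with Cited1 alone 274 CPM (256 to 293) and 302 CPM (280 to 325). With neither gene Wnt4 was at 260 CPM (251 to 269) and 377 CPM (363 to 391), which in the exposed library was above Cited1 alone. The interval of the cells with Six2 alone lay above those of the other groups in both libraries. Lhx1 was higher there too, 150 CPM (126 to 177) and 128 CPM (106 to 154), than in cells with both genes, 73.4 CPM (64.1 to 83.8) and 93.4 CPM (80.3 to 108), though the exposed intervals overlapped. Cells with neither had 119 CPM (112 to 125) and 154 CPM (145 to 163) of Lhx1, so in the exposed library the cells with Six2 alone were not the highest.

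Meox1 and Crym were highest in cells with both Six2 and Cited1 and lower in cells with Six2 alone. Meox1 had 83.4 CPM (73.4 to 94.3) against 35.1 CPM (24.2 to 49.3) in the control and 101 CPM (87.4 to 116) against 26.3 CPM (16.7 to 39.5) in the exposed library. Crym had 109 CPM (97.4 to 121) against 42.6 CPM (30.4 to 58.0) and 107 CPM (92.7 to 122) against 29.8 CPM (19.4 to 43.6). Eya1 did not separate these groups, with 87.0 and 85.2 CPM in the control and 96.4 and 79.0 CPM in the exposed library, and Osr1 had overlapping intervals as well. Sall1 was at 90.0 and 83.0 CPM in the control, but in the exposed library it was at 73.0 CPM (61.5 to 85.9) in cells with both and 43.5 CPM (30.8 to 59.7) with Six2 alone, without overlap. Uncx had 278 CPM (259 to 297) with both and 296 CPM (262 to 333) with Six2 alone in the control. In the exposed library Uncx had 284 CPM (260.6 to 308) and 227 CPM (196 to 260.57), intervals that nearly touched. The groups were cut by detection of at least 1 UMI, so cells called free of Cited1 include cells in which it was missed. Median depth was 6483 UMIs per control cell with both genes, 5104 with Six2 alone, 4878 with Cited1 alone and 4163 with neither. The exposed medians were 6885, 6289, 6073.5 and 5287.5 in this order. These groups were not redrawn at equal depth, and the part of depth was not tested.

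**Figure D4:**
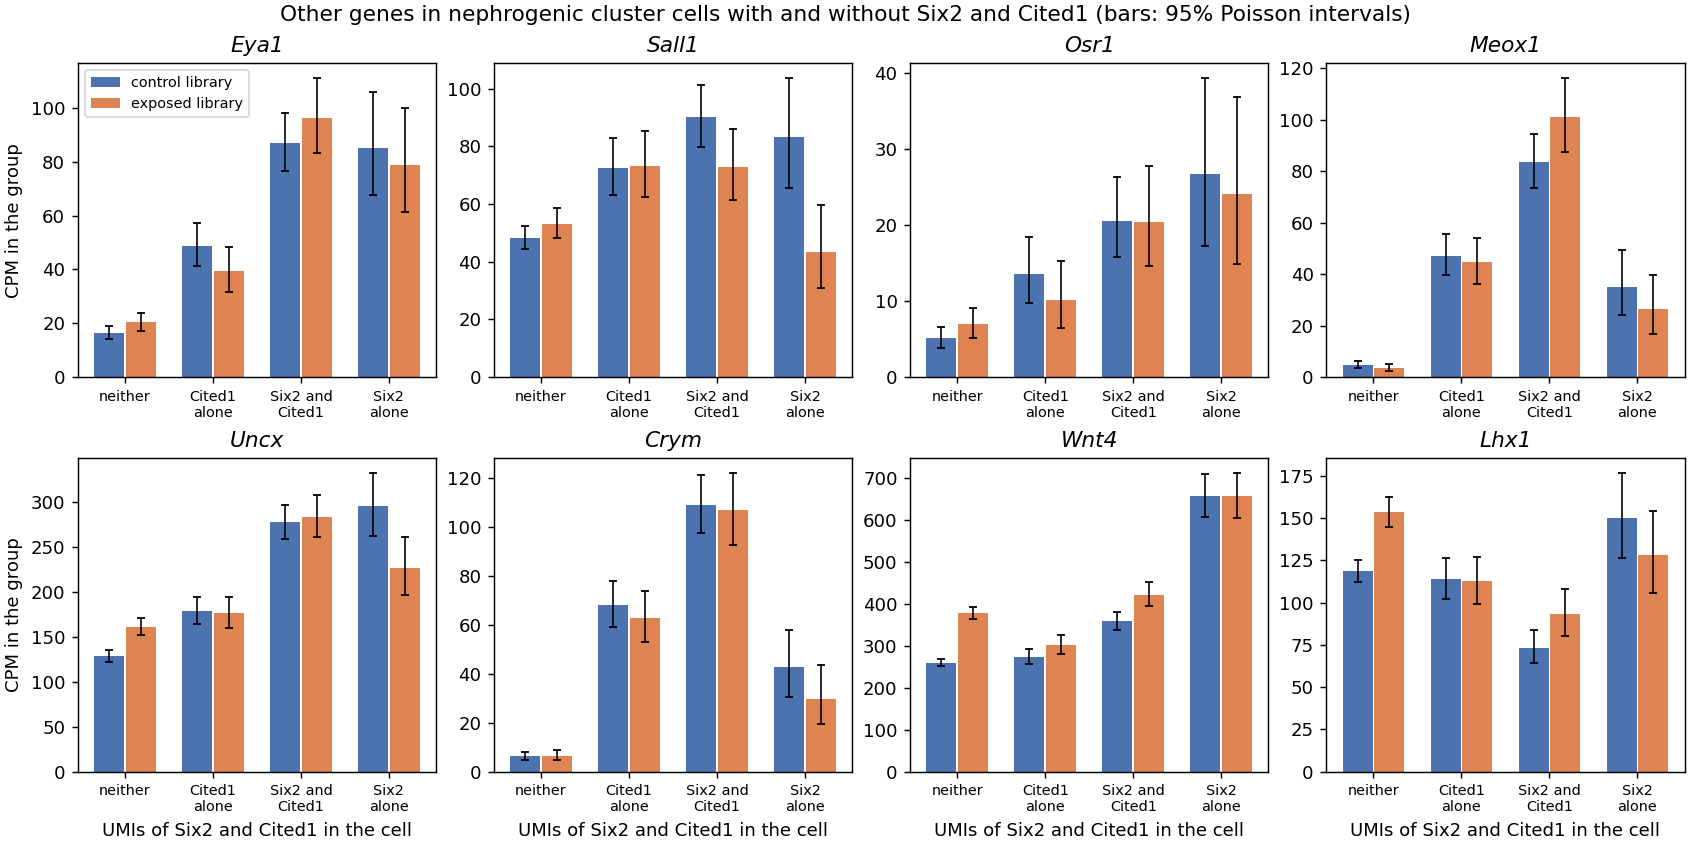
CPM of the other 6 genes and of Wnt4 and Lhx1 in nephrogenic cluster cells with UMIs of neither Six2 nor Cited1, Cited1 alone, both, or Six2 alone; blue is the control and orange the exposed library, with 95% Poisson intervals. Wnt4 is highest in cells with Six2 alone (657 CPM in each library), and Meox1 and Crym are highest in cells with both genes.

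Between the libraries, Six2 and Cited1 had a lower CPM in the exposed nephrogenic cluster, by little. The ratio of exposed to control CPM was 0.844 (0.759 to 0.939) for Six2 and 0.859 (0.814 to 0.905) for Cited1. The mean of the authors' log2 values had the opposite sign, with exposed minus control differences of 0.021 for Six2 and 0.018 for Cited1. With the mean of CPM per cell, which also weighs cells equally, both ratios stayed below 1. At 2000 UMIs per cell the ratios were 0.898 (0.741 to 1.08) for Six2 and 0.810 (0.737 to 0.890) for Cited1. Uncx was at 1.10 (1.05 to 1.17). Intervals of the other 5 genes included 1, with ratios of 1.08 for Eya1, 0.973 for Sall1, 1.07 for Osr1, 1.06 for Meox1 and 0.966 for Crym. None of the 8 passed 1.5-fold in either direction, while 1.48% of the 8648 genes with at least 50 UMIs were higher and 4.94% lower by as much.

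Over all cells of each library, where the boundaries of the cluster play no part, Six2 was at 24.8 CPM for control and 19.99 CPM for exposed cells, which gives a ratio of 0.805 (0.725 to 0.894). Cited1 was at 99.8 and 81.2 CPM, a ratio of 0.813 (0.772 to 0.856). None of the 8 genes passed 1.5-fold here either, against 0.616% of genes higher and 0.762% lower. Meox1 was at 17.7 and 20.9 CPM, a ratio of 1.18 (1.06 to 1.32), and in endothelium-like cells its ratio was 1.36 (1.11 to 1.66). In such sums fewer cells of a type and less RNA per cell cannot be told apart.

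Ureteric bud and collecting duct markers, at 1138 CPM in the control and 514 CPM in the exposed nephrogenic cluster, move with this comparison. When cells with at least 2 UMIs over these markers were left out, a step chosen after the data were seen, 2182 control and 1407 exposed cells of the cluster remained. The ratio was then 0.762 (0.681 to 0.853) for Six2 and 0.745 (0.704 to 0.788) for Cited1. Crym at 0.829 (0.726 to 0.946) and Sall1 at 0.870 (0.777 to 0.973) were then also below 1, and Uncx at 1.02 (0.956 to 1.08) was no longer above it. By CPM, Six2 and Cited1 were lower in the exposed library with and without these cells. The part of these cells in the difference was not tested. No such step was taken for loop of Henle and distal tubule markers, whose summed level was also lower in the exposed nephrogenic cluster. Their part in the difference was not tested either.

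**Figure D5:**
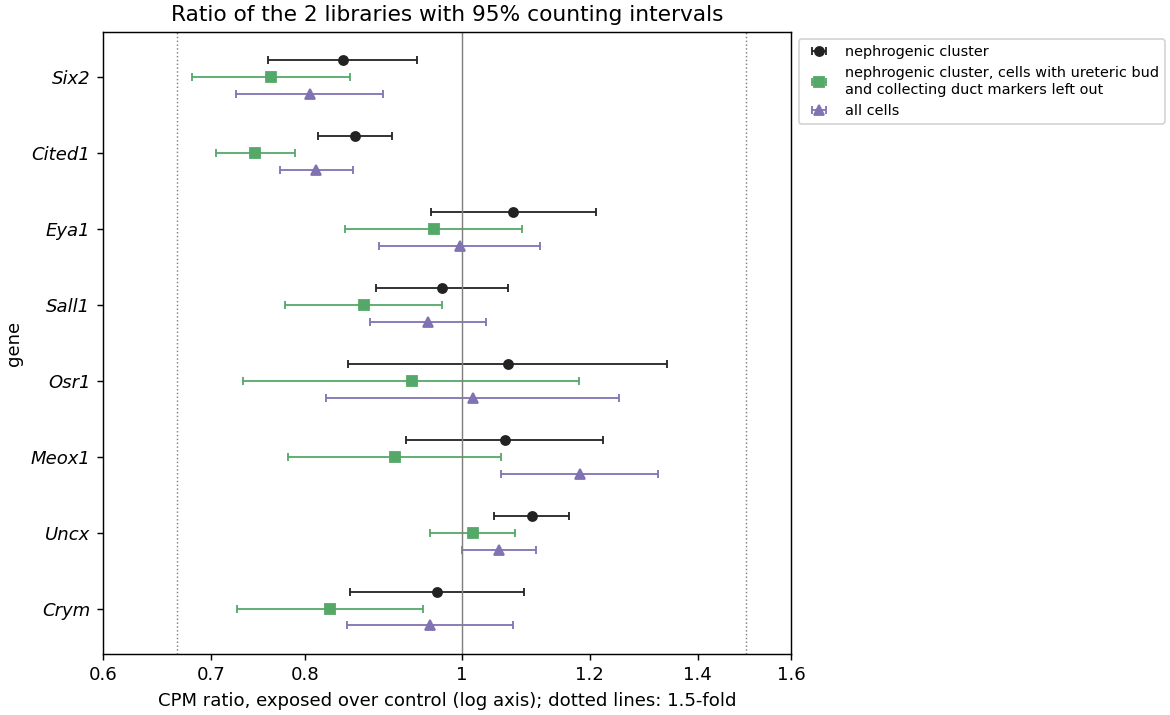
Ratio of exposed to control CPM of each gene (log axis) with 95% counting intervals, in the nephrogenic cluster (black circles), in that cluster without cells holding at least 2 UMIs of ureteric bud and collecting duct markers (green squares), and over all cells (purple triangles); dotted lines mark 1.5-fold. Six2 and Cited1 lie below 1 in all 3 series, from 0.745 to 0.859, and no point reaches a dotted line.

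By class of Wnt4 and Lhx1, Cited1 was lower in exposed cells with neither gene, at 0.775 (0.712 to 0.844), with Lhx1 alone, at 0.647 (0.480 to 0.866), and with both, at 0.837 (0.735 to 0.952). The ratio with Lhx1 alone was past 1.5-fold, as it was for 4.54% of 7467 genes in that direction and 3.4% in the other; it was 0.664 (0.359 to 1.18) at 2000 UMIs per cell, where the ratio with both genes was 1.22 (0.666 to 2.22). With Wnt4 alone its ratio was 1.03 (0.944 to 1.12). Six2 had 0.994 (0.817 to 1.21) in cells with neither and 0.794 (0.676 to 0.932) in cells with Wnt4 alone. Cells with Lhx1 alone held 36 (control) and 5 (exposed) Six2 UMIs, for a ratio of 0.173 (0.053 to 0.443), and at 1000 UMIs per cell this ratio was 1.74. The splitting genes were themselves higher in the exposed cluster, Wnt4 at 390 against 299 CPM, a ratio of 1.31 (1.26 to 1.36), and Lhx1 at 135 against 112 CPM, a ratio of 1.21 (1.13 to 1.29), so the classes hold different shares of the cluster in the 2 libraries. Cells with neither made up 50.7% of the control and 41.5% of the exposed cluster. Wnt4 was in 38.9% of control and 46.0% of exposed cells of the cluster, and in 27.4% of control and 32.2% of exposed cells thinned to 2000 UMIs, and Lhx1 was in 26.1% and 31.4%, or 14.5% and 16.9% after thinning.

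The lists of pathway genes had few members past 1.5-fold between the libraries, as did all genes (1.48% higher and 4.94% lower). Of the 27 measured progenitor genes other than the 8, Fgf20, a growth factor made by progenitors, was the one past 1.5-fold, with 7.22 CPM in the exposed and 3.91 CPM in the control cluster, a ratio of 1.85 (1.34 to 2.55). None was lower by as much, and the median log2 ratio of the list was 0.08, beside 0.02 for the 8 genes and -0.01 over all genes. None of the 20 differentiation genes passed 1.5-fold; 15 were above 1 and the median was 0.22. Of 10 cell division genes, Cenpe, a kinesin of the mitotic spindle, was lower, at 34.8 against 56.2 CPM, a ratio of 0.620 (0.553 to 0.694), and the median of the list was -0.02.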

How the data were processed

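Whole kidney cells of 2 libraries, 1 per group, were profiled with 10x Genomics Chromium 3' v2 chemistry, per the labels' protocols. Per the submitters' processing notes, Cell Ranger 2.2.0 and build mm10 were applied. Deposited by the authors were raw UMI counts per gene and cell without normalization, log2 values scaled by a factor per cell, and a cell table that gives, per the file headers, the percent of mitochondrial UMIs, doublet scores and cluster numbers. All deposited cells and the 8930 genes listed for both libraries were used. Every main value came from the counts: UMIs were summed over cells and divided by the summed UMIs of the shared genes (CPM). Clusters were named where at least 3 fixed markers were detected, each in 10% or more of cells at 2 times or more the CPM of the other cells. No doublets were removed in the main values. Classes by Wnt4, Lhx1, Six2 and Cited1 used detection of 1 UMI. The scripts (Python 3.11.15, scipy 1.17.1) were tested on simulated data.

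With 1 library per group no p-value or standard error was computed. The intervals treat UMIs as independent draws and leave out spread between cells and animals. Named besides the 8 genes were Wnt4, Lhx1, the 5 genes most like each member and list genes past 1.5-fold in the nephrogenic cluster between libraries. Aqp2 was named after its values were seen. Alternatives changed the depth per cell, the detection limit, the cells and genes kept and the scaling. The members and lists were chosen with earlier results of these data known. Ratios against the background used genes with at least 50 UMIs over both sides.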

Additional observations from a re-analysis of the deposited data

Results flagged for a closer look

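Crym was flagged because its exposed to control ratio lay on opposite sides of 1 in 2 classes of nephrogenic cells: 1.28 (1.04 to 1.56) in cells with Wnt4 alone and 0.756 (0.575 to 0.988) in cells with both Wnt4 and Lhx1. The difference between the classes was not tested. Its levels with Wnt4 alone were 46.0 CPM in the control and 58.7 CPM in the exposed library, where ureteric bud and collecting duct markers stood at 1900 and 652 CPM; with both genes its levels were 34.2 and 25.9 CPM and the markers stood at 334 and 187 CPM. Their part in the difference was not tested. Without cells holding at least 2 UMIs of those markers the ratio was 1.12 (0.913 to 1.38) with Wnt4 alone and 0.640 (0.464 to 0.877) with both. With cells thinned to 2000 UMIs the ratios were 0.895 (0.581 to 1.36) and 0.195 (0.021 to 0.862), both below 1, and with Wnt4 alone at 1000 UMIs it was 0.940 (0.373 to 2.27), so the opposite sides were not seen at those depths. At 3000 UMIs they were 1.22 (0.881 to 1.69) and 0.706 (0.343 to 1.39).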

How the results depend on the processing

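The count of members past 1.5-fold between libraries, in the nephrogenic cluster and over all cells, was 0 of 8 under every alternative run. The count led by the nephrogenic cluster was 7 of 8 by CPM and went to 6 at 1000 and 3000 UMIs per cell in the control and without cells over 25% mitochondrial UMIs in the exposed library. Members past 1.5-fold in Wnt4-alone over Lhx1-alone cells numbered from 5 to 7 in each library. Six2 exposed over control ranged from 0.762 to 0.929 in that cluster and from 0.764 to 0.881 over all cells, and Cited1 from 0.745 to 0.864 and from 0.715 to 0.827. Only the mean of the authors' log2 values turned the sign, to differences of 0.021 for Six2 and 0.018 for Cited1 in the cluster and 0.0062 for Six2 over all cells. The mean of CPM per cell, which also weighs cells equally, did not turn it, and the cause was not tested. Members with the ratio's interval below 1 in the cluster went from 2 to 1 at 1000, 2000 and 3000 UMIs per cell and to 4 without cells holding ureteric markers; those above 1 went from 1 to 0 at 1000 UMIs and without those cells. Over all cells those below 1 went from 2 to 1 at 1000 UMIs and to 3 with ratios divided by the median ratio, without mitochondrial genes, at 3000 UMIs and without cells over 25% mitochondrial UMIs. Those above 1 went from 2 to 1 with ratios divided by the median ratio (1.04), without mitochondrial genes in the totals, without the 5 highest cells, at 2000 UMIs and without cells over 25% mitochondrial UMIs, and to 0 at 1000 and 3000 UMIs, where Uncx was at 0.990. Thinning uses fewer UMIs and so widens intervals. Members whose interval of Wnt4 alone over Lhx1 alone lay above 1 went from 7 to 3 in the control and from 7 to 2 in the exposed library at 1000 UMIs, where Uncx was at 0.756 and 0.847 and Crym at 0.716 in the control; Sall1 in the control went from 0.723 to 1.12 at 2000 and 1.07 at 1000 UMIs. Between libraries within classes, thinning turned Crym with Wnt4 alone to 0.895 and 0.940 (2000 and 1000 UMIs), Sall1 with Lhx1 alone to 1.07 at both depths, Cited1 with both to 1.22 at 2000 and Six2 with Lhx1 alone to 1.74 at 1000 UMIs, so ratios within classes are unstable. Six2 cells with Cited1 made up 47.3%, 58.9% and 64.3% of control and 38.7%, 43.7% and 55.7% of exposed cells at 1000, 2000 and 3000 UMIs, and 66.0% of control cells at a detection limit of 2 UMIs. Cells with at least 3 members were 2.44%, 9.06% and 15.8% of the control and 2.34%, 7.43% and 12.8% of the exposed cluster at these depths, 7.44% and 7.69% at 2 UMIs, and 30.6% and 30.1% without cells holding ureteric markers. Ordered pairs with intervals apart fell to 25 in the control at 1000 UMIs, and to 15, 30 and 33 in the exposed library at 1000, 2000 and 3000 UMIs. With a background minimum of 20 or 200 UMIs, 7.55% and 4.06% of genes passed 1.5-fold in the cluster, against 6.42%. Co-detection in progenitor-like clusters alone could not be run, since no cluster carries that name. No paired analysis was possible because each group has 1 library and the result comes from no test. Counting error limits Osr1 and all values in Lhx1-alone cells, and depth differs between libraries and classes.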
